A study of Mus musculus with 12 samples.

Results

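The genes of cholesterol and fatty acid synthesis were followed through 4 stages of T cell development in the mouse thymus. The group holds 38 listed genes, chosen by name for their roles in sterol synthesis and its control, fatty acid synthesis, elongation and desaturation, fatty acid activation and storage, and sterol efflux. Of these, 37 were measured among 18193 genes in all, by 87 probe sets whose only symbol in the platform annotation is the gene, and Soat1 was not analysed here. The probe sets of a gene were averaged, and 27 members had more than 1.

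Thymocytes of untreated C57BL/6 mice had been sorted by surface markers into DN cells (CD4-CD8a-TCRb-), DP cells (CD4+CD8a+), CD4SP cells (CD4+CD8a-TCRbhi) and CD8SP cells (CD4-CD8a+TCRbhi). Each subset was hybridised to 3 Affymetrix arrays, 12 in all, from total RNA taken straight after isolation, with no culture. The labels give no age, genotype change or agent, and do not say that the 3 arrays of a subset came from separate mice, so p-values measure the spread between these arrays, which may be technical. DN cells are the earliest of these subsets, DP cells follow them, and CD4SP and CD8SP cells are the selected helper and cytotoxic lineages that arise from DP cells.

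The deposited values are logarithms, taken here as log2, and every probe set had been set to a mean of 0 over the 3 DP arrays. A value of 1 therefore stands for a signal 1 log2 unit above the DP mean of that gene. Levels of different genes, and signal over background, could not be read from the table. A difference is given below with its standard error (SE), and was called at an adjusted p under 0.05 (limma, 4 group means fitted on all 18193 genes, Benjamini-Hochberg adjustment over all genes). In bulk samples such as these, fewer cells of a type and less RNA per cell cannot be told apart.

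The genes used for the sort checked the labels. Cd4 lay between -6.49 and -3.88 on the DN arrays, between -0.76 and -0.52 on the CD4SP arrays and between -9.20 and -8.39 on the CD8SP arrays, relative to DP. Cd8a lay between -4.59 and -2.63 in DN, between -6.84 and -6.35 in CD4SP and between -0.43 and -0.20 in CD8SP. DN replicate 1 had the highest Cd4 and Cd8a of the DN arrays. DN arrays also carried more signal of B, myeloid, NK and γδ T cell markers than DP arrays. Lower in DP were 4 of 7 B cell markers, 7 of 11 myeloid and dendritic markers and 6 of 7 NK and innate lymphoid markers. So were 4 of 4 γδ T cell markers, among them Blk, which is also counted as a B cell marker. For comparison, 18.8% of all genes were called lower in DP and 17.8% higher. Near that share, 2 of 8 macrophage markers (25.0%) and 2 of 9 stromal markers (22.2%) were lower in DP. The stromal markers had a median DP minus DN difference of 0.21. The mean of the myeloid and dendritic markers lay between 3.09 and 4.82 on the DN arrays and between -0.24 and 0.24 on the DP arrays, that of the B cell markers between 1.44 and 3.05 against -0.10 and 0.10, that of the NK markers between 1.31 and 2.68 against -0.09 and 0.06, and that of the γδ markers between 2.35 and 2.92 against -0.15 and 0.17. The means were closer for macrophage markers (DN between 0.15 and 0.36) and for stromal markers (DN between -0.37 and 0.12), and 1 of 4 erythroid markers was higher in DP (DN between -0.62 and -0.20). Adipocyte markers, which mark a fat cell source of lipid genes, had DN array means between -0.20 and 0.07, and 1 of the 6 was higher in DP. Since the DP arrays are set to 0, it cannot be read which of these markers were undetected. The part of these cells in the lipid gene results below was not tested.

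Cells make cholesterol from acetyl-CoA through mevalonate, isoprenoids and squalene, and fatty acids from the same precursor through malonyl-CoA. The transcription factor SREBP-2 (Srebf2) drives mainly the sterol genes and SREBP-1 (Srebf1) mainly the fatty acid genes. Both are held in the endoplasmic reticulum by Scap and the Insig proteins while sterols are plentiful, and are released for cleavage when sterols run low. Dividing lymphocytes draw on both pathways for membrane, while the liver X receptors, which sense oxysterols, raise the efflux pumps Abca1 and Abcg1.

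The start regions of 6 members are shown because these genes stand for the different patterns across the subsets described below: Hmgcs1 and Idi1 of the mevalonate route, Insig1 of sterol sensing, and Fads2, Fasn and Elovl6 of fatty acid modification and synthesis. Each is the stretch of 250 bases before the gene's start in RefSeq, build GRCm38.p6, written 5′ to 3′ on the gene's strand: Hmgcs1 at chr13:119690101-119690350 (plus strand), Idi1 at chr13:8885356-8885605 (plus), Insig1 at chr5:28071162-28071411 (plus), Fads2 at chr19:10101504-10101753 (minus), Fasn at chr11:120824548-120824797 (minus) and Elovl6 at chr3:129532136-129532385 (plus). Capitals mark matches, on either strand, to 4 sets of letters: the CCAAT box (CCAAT, bound by NF-Y), the GC box (GGGCGG, bound by Sp1), the E-box (CACGTG) and the core of the sterol response element (CACCCCAC).
Hmgcs1: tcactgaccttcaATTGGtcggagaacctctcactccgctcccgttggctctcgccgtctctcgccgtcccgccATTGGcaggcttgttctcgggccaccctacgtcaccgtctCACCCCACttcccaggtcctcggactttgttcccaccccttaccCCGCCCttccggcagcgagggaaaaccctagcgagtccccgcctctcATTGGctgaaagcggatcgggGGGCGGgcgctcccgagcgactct
Idi1: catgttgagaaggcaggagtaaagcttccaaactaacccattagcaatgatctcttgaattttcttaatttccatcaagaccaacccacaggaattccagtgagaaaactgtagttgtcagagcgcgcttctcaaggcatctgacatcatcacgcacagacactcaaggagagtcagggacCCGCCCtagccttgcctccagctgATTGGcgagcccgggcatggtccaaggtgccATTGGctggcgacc
Insig1: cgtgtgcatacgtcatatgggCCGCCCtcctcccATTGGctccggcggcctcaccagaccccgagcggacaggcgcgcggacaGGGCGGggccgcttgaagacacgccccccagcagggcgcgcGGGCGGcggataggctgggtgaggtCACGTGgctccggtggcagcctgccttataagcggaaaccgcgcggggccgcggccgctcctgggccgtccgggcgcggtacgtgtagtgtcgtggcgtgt
Fads2: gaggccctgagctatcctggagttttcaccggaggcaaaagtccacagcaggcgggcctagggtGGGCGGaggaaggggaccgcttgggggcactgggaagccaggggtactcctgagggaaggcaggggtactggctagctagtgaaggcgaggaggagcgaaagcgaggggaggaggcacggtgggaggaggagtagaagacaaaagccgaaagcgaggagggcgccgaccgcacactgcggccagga
Fasn: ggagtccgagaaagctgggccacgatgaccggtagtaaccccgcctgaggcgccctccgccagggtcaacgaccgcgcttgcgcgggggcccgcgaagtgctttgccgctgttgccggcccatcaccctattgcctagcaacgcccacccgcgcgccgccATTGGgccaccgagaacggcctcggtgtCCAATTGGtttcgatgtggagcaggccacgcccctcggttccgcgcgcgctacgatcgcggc
Elovl6: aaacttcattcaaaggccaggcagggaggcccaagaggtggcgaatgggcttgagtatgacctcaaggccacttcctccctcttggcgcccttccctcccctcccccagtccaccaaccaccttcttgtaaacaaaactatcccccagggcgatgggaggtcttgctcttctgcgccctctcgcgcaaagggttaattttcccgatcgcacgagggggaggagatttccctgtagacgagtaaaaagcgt

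Of these, Hmgcs1 held the sterol response element core, 136 to 129 bases before its start, along with 3 CCAAT boxes and 2 GC boxes. Idi1 held 2 CCAAT boxes and 1 GC box, Insig1 held 1 CCAAT box, 3 GC boxes and 1 E-box, and Fads2 held 1 GC box. Fasn held 3 CCAAT boxes, of which the pair at 62 to 58 and 59 to 55 bases before the start overlap. The Elovl6 stretch held no match to any of these letters. Among the windows in the RefSeq table, 39 belong to 30 members. A CCAAT box was found in 59.0% of these, against 34.7% of the 18109 windows of measured genes and 33.8% of all 32851 windows, a GC box in 69.2% against 48.3% and 32.7%, and an E-box in 17.9% against 7.38% and 6.02%. The core was found in 2.56% against 2.81% and 2.58%. These are letter matches and not sites of binding.

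Most members were lower in DP than in DN, and the SP subsets moved members both ways. Of all genes 36.6% were called in DP against DN, 17.8% higher and 18.8% lower, and of the 37 members 3 rose, 21 fell and 13 were not called. The arrays of DN and DP did not overlap for 27 members, against 49.8% of all genes, and the median difference was -0.35 over the members and 0.04 over all genes. In CD4SP against DP, where 32.7% of all genes were called (16.4% higher, 16.2% lower), 7 members rose and 12 fell, which left 18 not called. The arrays did not overlap for 25 members, against 49.4% of all genes, with a median of -0.15 against 0.04. In CD8SP against DP, where 39.0% of all genes were called (18.2% higher, 20.9% lower), 7 members rose and 14 fell, which left 16 not called. The arrays did not overlap for 24 members, against 48.6% of all genes, with a median of -0.17 against 0.00. The comparisons with DP share the DP arrays.

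Set directly against DN, most members were lower in the SP subsets. In CD4SP 24 members were lower and 5 higher than in DN, in a comparison that called 43.7% of all genes (22.6% higher, 21.0% lower), and the arrays did not overlap for 32 members and 55.5% of all genes. In CD8SP 24 were lower and 3 higher, where 40.9% of all genes were called (18.7% higher, 22.3% lower), and the arrays did not overlap for 29 members and 49.7% of all genes. Both share the DN arrays. The count of higher members in CD8SP was 5 without CD8SP replicate 1. Normalizing the arrays to common quantiles left fewer calls after DP: 3 members higher and 7 lower in CD4SP, and 4 higher and 8 lower in CD8SP. The loss was general: of all genes, 1257 were then higher and 1656 lower in CD4SP instead of 2992 and 2950, and 1235 higher and 1525 lower in CD8SP instead of 3307 and 3796. Over the 6 pairwise comparisons 34 members were called at least 1 time, and Fdps, Ebp and Scd1 were not called in any.

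**Figure D1:**
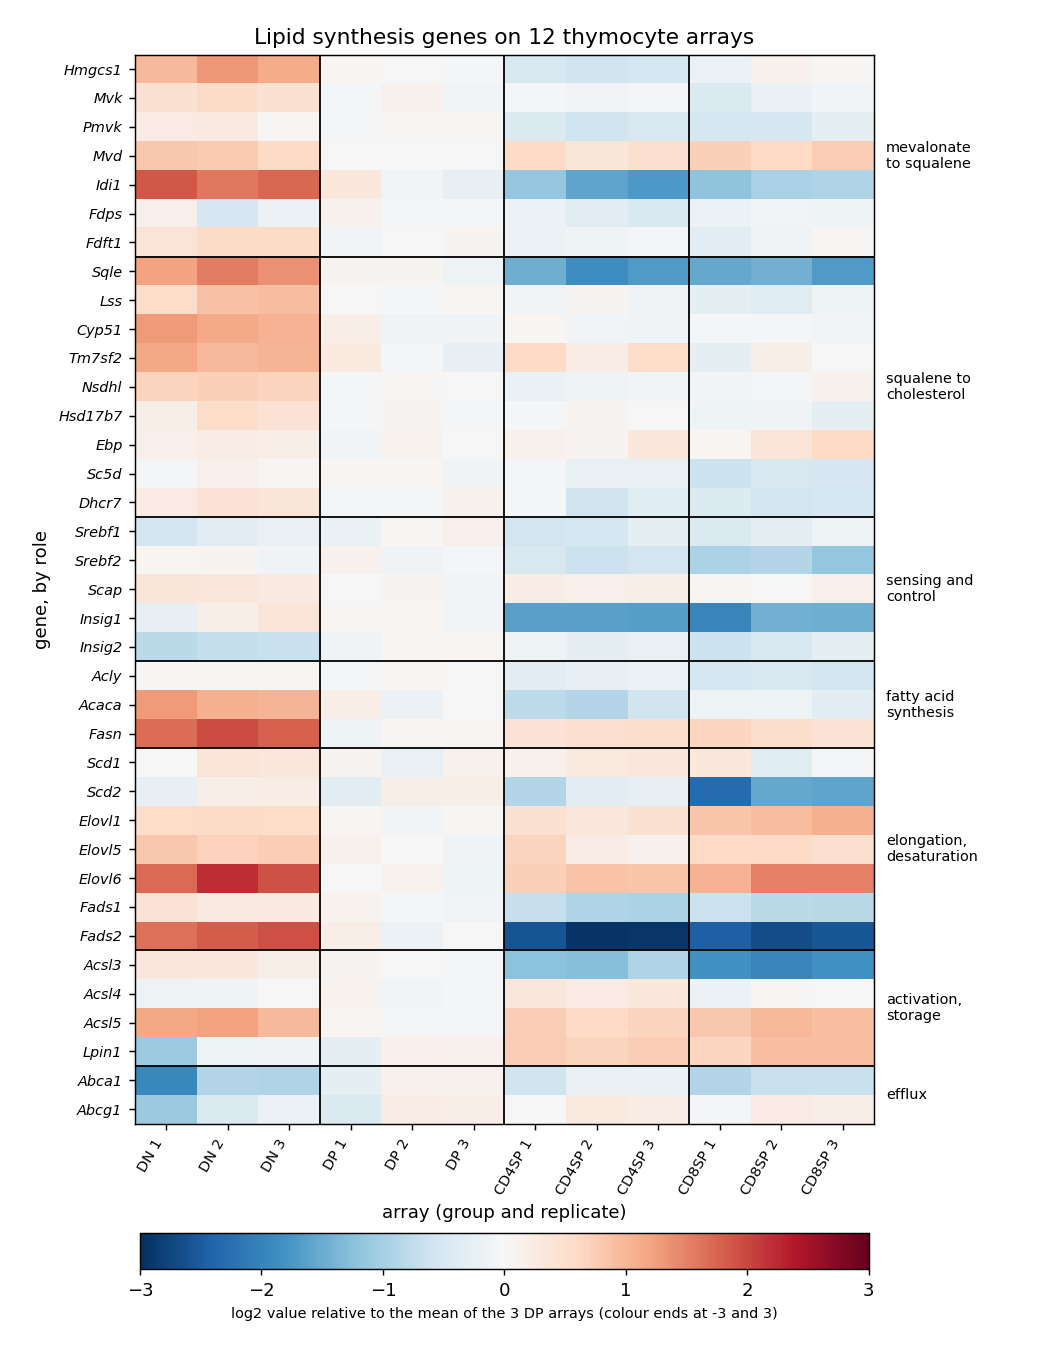
Values of the 37 measured members (rows, ordered by role) on each of the 12 arrays (columns, by subset), as log2 relative to DP. Fads2 runs from 1.95 in DN to -2.94 in CD4SP, while Fasn and Elovl6 are high in DN and lowest in DP.

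Most genes of sterol synthesis were highest in DN. Of the 16 members that build cholesterol, 12 fell in DP relative to DN and 4 were not called, with a median difference of -0.60. The 12 make 75.0% of the 16, where 18.8% of all genes were called lower. Hmgcs1, at the entry of the route, was among those that fell. In CD4SP against DP 1 of the 16 rose, 4 fell and 11 were not called, and in CD8SP against DP 1 rose, 5 fell and 10 were not called. These make 31.2% and 37.5% of the 16, close to the 32.7% and 39.0% of all genes called there.

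Hmgcs1, the cytosolic HMG-CoA synthase that commits acetyl units to mevalonate, read 0.98, 1.30 and 1.12 on the DN arrays, 0.05, 0.00 and -0.05 on the DP arrays, -0.48, -0.60 and -0.53 on the CD4SP arrays and -0.17, 0.13 and 0.03 on the CD8SP arrays. DN was high and CD4SP low with no overlap, while the CD8SP arrays lay around those of DP. The probe sets averaged here differed in CD8SP. Probe sets 1433443_a_at (-0.33, -0.09 and -0.10) and 1433446_at (-0.21, -0.13 and -0.21) lay below all DP arrays. Probe set 1441536_at (0.20, 0.80 and 0.65) lay above them, and 1433444_at and 1433445_x_at overlapped with them. Hmgcs1 fell by 1.13 ± 0.10 from DN to DP (2.20-fold, adjusted p = 1.01e-05) and by 0.54 ± 0.10 from DP to CD4SP (adjusted p = 0.00196), and differed by 0.00 ± 0.10 between CD8SP and DP (adjusted p = 0.998).

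Idi1, which interconverts the 5-carbon isoprenoid units, read 1.87, 1.59 and 1.73 in DN, 0.33, -0.09 and -0.24 in DP, -1.17, -1.59 and -1.72 in CD4SP and -1.21, -0.96 and -0.92 in CD8SP. Every DN array lay above every DP array, and every DP array above all 6 SP arrays. Idi1 fell by 1.73 ± 0.18 from DN to DP (adjusted p = 2.26e-05), by a further 1.50 ± 0.18 to CD4SP (adjusted p = 6.43e-05) and by 1.03 ± 0.18 to CD8SP (adjusted p = 7.64e-04). From DN to CD4SP it fell by 3.22 ± 0.18, or 9.35-fold (adjusted p = 2.05e-07).

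Mvd, the decarboxylase that makes isopentenyl diphosphate, took another course. It read 0.81, 0.77 and 0.60 in DN, 0.01, 0.01 and -0.02 in DP, 0.59, 0.36 and 0.51 in CD4SP and 0.71, 0.59 and 0.76 in CD8SP. DP was the low subset, and the CD8SP arrays overlapped with those of DN. Mvd fell by 0.73 ± 0.09 from DN to DP (adjusted p = 8.79e-05) and rose by 0.49 ± 0.09 in CD4SP (adjusted p = 0.00151) and by 0.69 ± 0.09 in CD8SP (adjusted p = 1.16e-04). It was the 1 sterol synthesis gene that rose in each SP subset. Its lower value in CD4SP than in DN (-0.24, adjusted p = 0.0483) passed narrowly, and was lost in 9 of the 12 fits that left out 1 array, up to an adjusted p of 0.176 without CD4SP replicate 2.

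Of the kinases of the route, Mvk, which phosphorylates mevalonate, fell from DN to DP by 0.49 ± 0.10 (adjusted p = 0.00299) and was not called between DP and either SP subset. Pmvk, which adds the next phosphate, had a DP minus DN difference of -0.18 ± 0.10 (adjusted p = 0.172), and fell in CD4SP by 0.50 ± 0.10 (adjusted p = 0.00229) and in CD8SP by 0.44 ± 0.10 (adjusted p = 0.0039).

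For Fdps and Fdft1 the gene average depends on the probe set. Fdps, farnesyl diphosphate synthase, has 2 probe sets that ran in opposite directions. Probe set 1423418_at read 1.51, 1.36 and 1.12 in DN, 0.26, -0.04 and -0.22 in DP, -0.68, -0.96 and -0.87 in CD4SP and -1.13, -0.80 and -0.95 in CD8SP, a step down like that of Idi1. Probe set 1438150_at read -1.19, -2.36 and -1.50 in DN, -0.01, -0.09 and 0.10 in DP, 0.35, 0.31 and -0.03 in CD4SP and 0.79, 0.62 and 0.69 in CD8SP, with DN the low subset. The DP minus DN difference was -1.33 ± 0.15 in the former (adjusted p = 5.12e-05, limma over all probe sets used) and 1.68 ± 0.24 in the latter (adjusted p = 2.63e-04), and 0.18 ± 0.15 in their average (adjusted p = 0.389). Which of the pair reports the transcript was not tested. Fdft1, squalene synthase, has 4 probe sets: 1438322_x_at and 1448130_at fell from DN to DP by 1.05 ± 0.15 and 0.91 ± 0.15, while 1438918_at and 1438919_x_at differed by -0.14 ± 0.09 and 0.03 ± 0.12 and were not called. The Fdft1 average fell by 0.52 ± 0.10 (adjusted p = 0.0019).

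**Figure D2:**
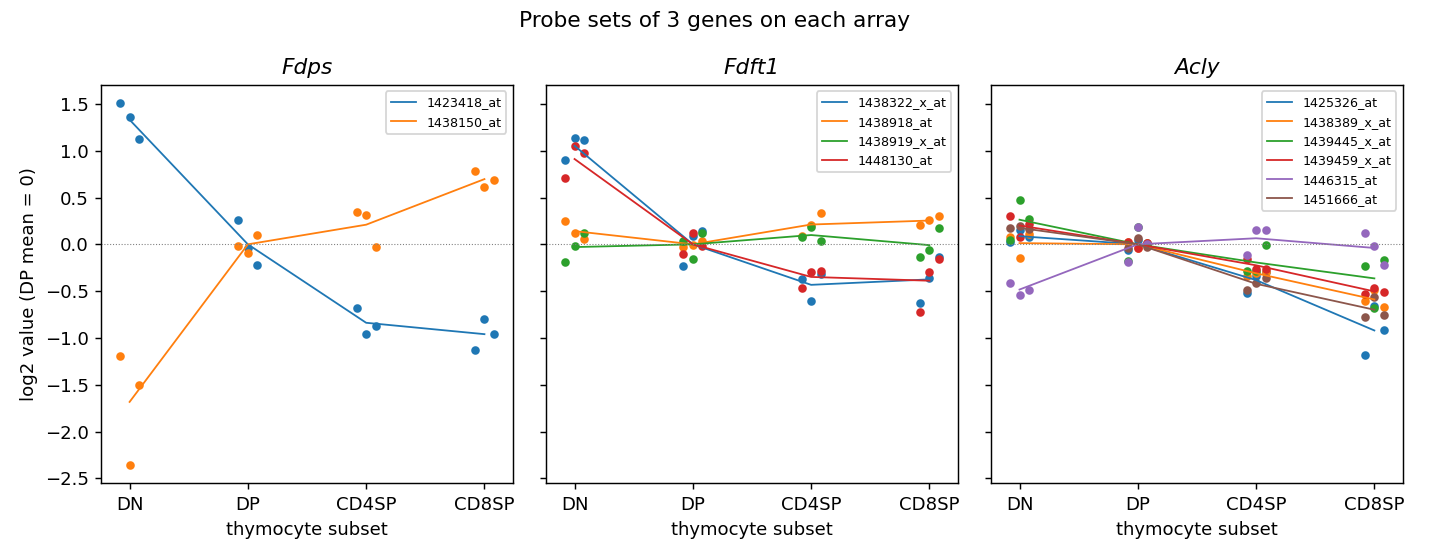
Values of the separate probe sets (colours) of Fdps, Fdft1 and Acly on each array (points), as log2 relative to the DP mean, with lines through the subset means. The Fdps probe sets run in opposite directions, with DN at 1.12 to 1.51 in 1423418_at and at -2.36 to -1.19 in 1438150_at.

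In the later part of the route, from squalene to cholesterol, 7 of 9 members fell in DP and 2 were not called. The 7 make 77.8% of the 9, where 18.8% of all genes were called lower. Sqle, squalene epoxidase and a rate-controlling enzyme of the pathway, read 1.20, 1.54 and 1.36 in DN, 0.07, 0.08 and -0.15 in DP, -1.46, -1.86 and -1.70 in CD4SP and -1.55, -1.45 and -1.71 in CD8SP. The subsets formed a staircase with no overlap between DN, DP and SP. Sqle fell by 1.37 ± 0.13 from DN to DP (adjusted p = 1.48e-05), by 1.67 ± 0.13 from DP to CD4SP (adjusted p = 3.05e-06) and by 1.57 ± 0.13 from DP to CD8SP (adjusted p = 4.62e-06). CD4SP lay 8.22-fold below DN (adjusted p = 4.58e-08).

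Cyp51, the lanosterol demethylase, read 1.27, 1.13 and 1.04 in DN, 0.20, -0.11 and -0.09 in DP, 0.06, -0.07 and -0.11 in CD4SP and -0.05, -0.06 and -0.08 in CD8SP. DN alone was high, and the other 9 arrays overlapped. Probe sets 1422533_at and 1450646_at were high in DN, while 1422534_at read 0.605, -0.07 and -0.16 there and overlapped with DP. The gene fell by 1.15 ± 0.10 from DN to DP (adjusted p = 8.12e-06), and then differed by -0.04 ± 0.10 and -0.06 ± 0.10 between DP and the SP subsets (adjusted p = 0.793 and 0.667). Nsdhl, a sterol dehydrogenase of the same stretch, read 0.66, 0.70 and 0.66 in DN, -0.03, 0.03 and -0.01 in DP, -0.20, -0.16 and -0.09 in CD4SP and -0.09, -0.03 and 0.13 in CD8SP. It too was high in DN only, with a fall of 0.67 ± 0.08 to DP (adjusted p = 4.92e-05). Lss, the cyclase that forms lanosterol, fell by 0.78 ± 0.11 from DN to DP (adjusted p = 2.59e-04). Its CD8SP arrays lay below all DP arrays, with a CD8SP minus DP difference of -0.25 ± 0.11 (adjusted p = 0.101). Probe set 1420014_at was low in CD8SP (-1.14, -1.24 and -0.50), and its DN arrays (-0.17, -0.04 and 0.29) overlapped with DP. Probe sets 1420013_s_at (CD8SP 0.32, 0.02 and 0.21) and 1426913_at (-0.003, 0.16 and -0.08) did not lie below DP in CD8SP.

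Tm7sf2, a sterol reductase, fell from DN to DP by 1.04 ± 0.17 (adjusted p = 5.29e-04), and its values then ran from 0.21 to 0.60 in CD4SP and from -0.29 to 0.17 in CD8SP, with no call against DP. Its lower value in CD4SP than in DN (-0.58, adjusted p = 0.0146) was lost without CD4SP replicate 2 (adjusted p = 0.0629). Hsd17b7, the 3-ketosteroid reductase, fell from DN to DP by 0.39 ± 0.10 (adjusted p = 0.0135), but not without DN replicate 2 (adjusted p = 0.0585). That array also ended its call in CD4SP against DN (-0.38, and an adjusted p of 0.0554 without it). Both calls were also lost with the gene taken from its least variable probe set. The DN and DP arrays were apart in 1457248_x_at (DN 0.41, 0.97 and 1.07) and overlapped in 1417871_at, 1440057_at and 1448865_at.

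Dhcr7, which completes cholesterol, fell from DN to DP by 0.35 ± 0.13 (adjusted p = 0.0478), a call lost in 10 of the 12 fits that left out 1 array, up to an adjusted p of 0.14 without DN replicate 2. It was lower in CD8SP than in DP by 0.49 ± 0.13 (adjusted p = 0.00979). Sc5d, the lathosterol desaturase, did not differ detectably between DP and DN in the average of its probe sets (-0.04 ± 0.09, adjusted p = 0.761). The DN arrays lay below all DP arrays in 1424709_at (-0.48, -0.30 and -0.19) and above them in 1434520_at (0.29, 0.53 and 0.15). In 1451457_at they overlapped, and no Sc5d probe sets were called in opposite directions. The Sc5d average fell in CD8SP by 0.55 ± 0.09 (adjusted p = 7.75e-04), against -0.15 ± 0.09 in CD4SP (adjusted p = 0.244). Ebp, the sterol isomerase, had differences between -0.19 and 0.34 over the 6 comparisons.

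**Figure D3:**
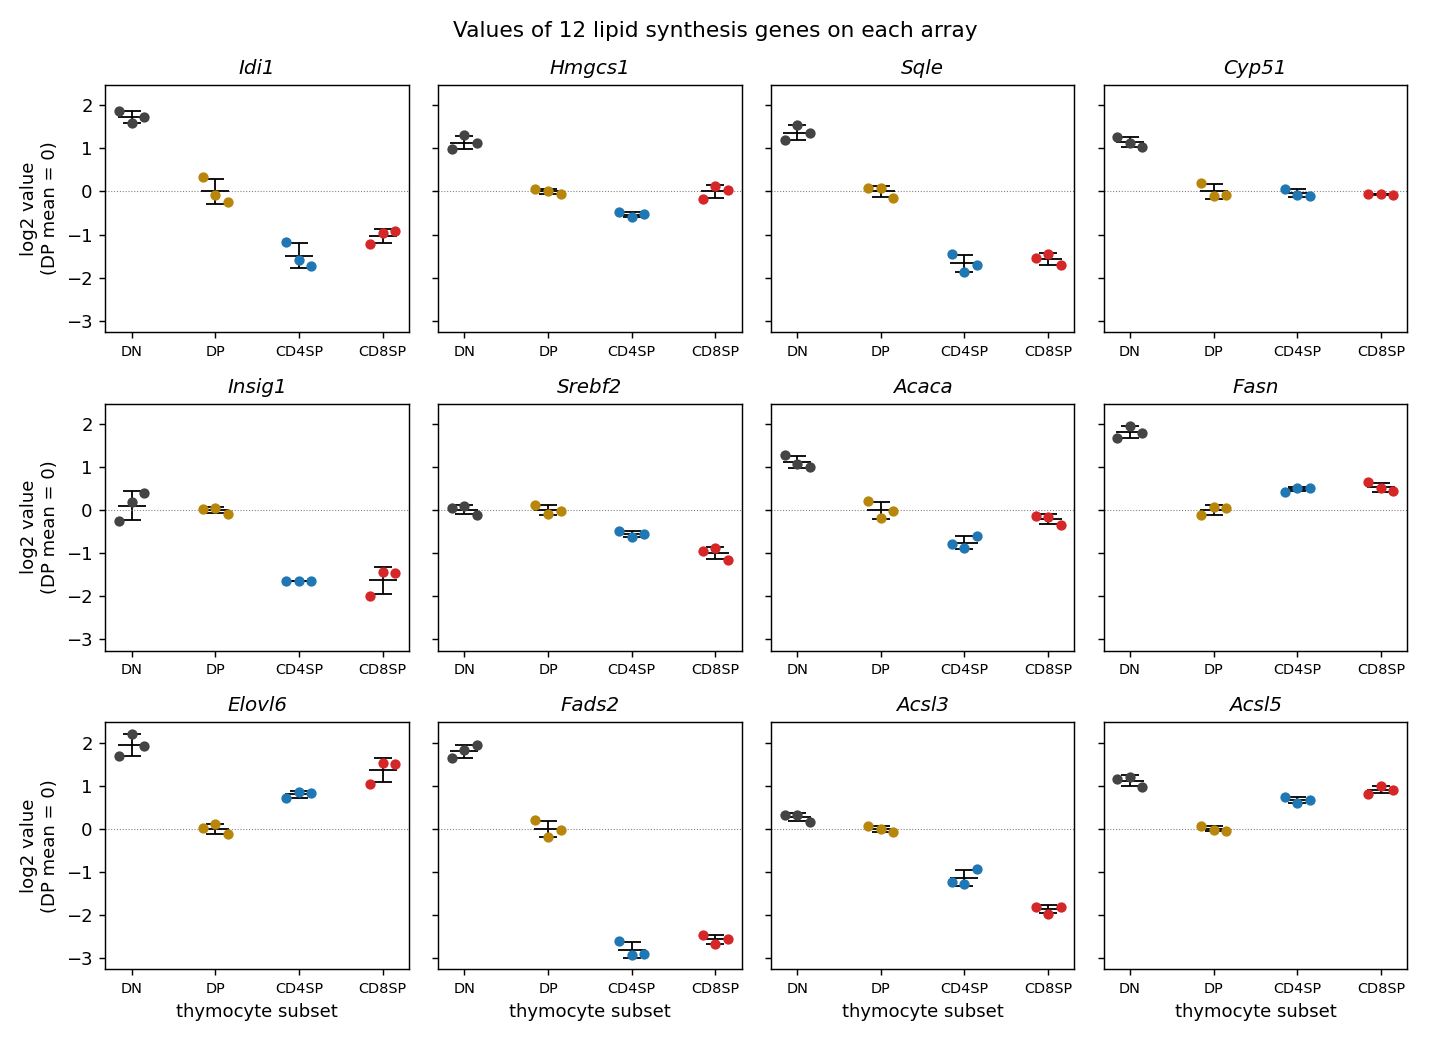
Values of 12 members by array (points), with the mean and SD of the 3 arrays of each subset (bars), in log2 relative to the DP mean. Idi1, Sqle and Fads2 step down from DN to DP to SP, Cyp51 is high in DN only, and Fasn, Elovl6 and Acsl5 are lowest in DP.

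Insig1 and Srebf2, of the genes that sense sterols and control SREBP, fell from DP to each SP subset. Of the 5 members, 2 rose and 1 fell from DN to DP, while 3 of the 5 fell from DP to CD4SP and 3 from DP to CD8SP. Of all genes 36.6%, 32.7% and 39.0% were called in these comparisons. Insig1, which retains the SREBPs in the endoplasmic reticulum and is itself a target of SREBP, read -0.26, 0.18 and 0.39 in DN, 0.03, 0.06 and -0.09 in DP, -1.64, -1.64 and -1.65 in CD4SP and -1.99, -1.43 and -1.46 in CD8SP. DN and DP overlapped, and all 6 SP arrays lay at least 1 log2 unit below them. Insig1 fell by 1.64 ± 0.17 in CD4SP (3.12-fold, adjusted p = 3.08e-05) and by 1.62 ± 0.17 in CD8SP (adjusted p = 2.89e-05), against a DP minus DN difference of -0.10 ± 0.17 (adjusted p = 0.688).

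Srebf2 read 0.06, 0.08 and -0.11 in DN, 0.12, -0.10 and -0.03 in DP, -0.48, -0.64 and -0.55 in CD4SP and -0.94, -0.89 and -1.15 in CD8SP. DN and DP overlapped, CD4SP lay below them, and CD8SP was lowest with no overlap. Of its probe sets, 1426744_at kept CD8SP apart from CD4SP. In 1452174_at CD8SP (-0.62, -0.67 and -0.84) overlapped with CD4SP (-0.40, -0.65 and -0.49). Srebf2 fell by 0.55 ± 0.10 in CD4SP (adjusted p = 0.00134) and by 0.99 ± 0.10 in CD8SP (adjusted p = 1.85e-05).

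Insig2, the other Insig protein, read -0.81, -0.71 and -0.67 in DN, -0.09, 0.03 and 0.07 in DP, -0.16, -0.28 and -0.22 in CD4SP and -0.64, -0.49 and -0.27 in CD8SP. DP was the highest subset, and DN the lowest. Insig2 rose by 0.73 ± 0.10 from DN to DP (adjusted p = 2.12e-04) and fell by 0.47 ± 0.10 in CD8SP (adjusted p = 0.00353), with a CD4SP minus DP difference of -0.22 ± 0.10 (adjusted p = 0.127).

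Srebf1 rose by 0.38 ± 0.13 from DN to DP (adjusted p = 0.0446), a call lost in 7 of the 12 fits that left out 1 array, up to an adjusted p of 0.153 without DP replicate 3. It fell by 0.47 ± 0.13 in CD4SP (adjusted p = 0.0201), also lost without any 1 of DP replicates 2 and 3 and CD4SP replicates 1 and 2 (adjusted p up to 0.0806). Scap, the escort of the SREBPs, fell by 0.33 ± 0.08 from DN to DP (adjusted p = 0.00597). Its probe sets differed: 1433520_at was high in DN (0.77, 0.86 and 0.65), and 1442885_at (-0.03, -0.17 and -0.11 in DN) overlapped with DP. The lower value of Scap in CD8SP than in DN (-0.26, adjusted p = 0.0181) was lost without DN replicate 1, DN replicate 2 or CD8SP replicate 2 (adjusted p up to 0.0619).

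The 3 enzymes of fatty acid synthesis went separate ways. Fasn, fatty acid synthase, read 1.67, 1.95 and 1.80 in DN, -0.12, 0.07 and 0.06 in DP, 0.43, 0.50 and 0.52 in CD4SP and 0.64, 0.52 and 0.44 in CD8SP. DN stood far above the rest, and every SP array lay above every DP array. Fasn fell by 1.80 ± 0.10 from DN to DP (3.49-fold, adjusted p = 2.98e-07), then rose by 0.48 ± 0.10 in CD4SP (adjusted p = 0.00266) and by 0.53 ± 0.10 in CD8SP (adjusted p = 0.00116).

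Acaca, the acetyl-CoA carboxylase that makes malonyl-CoA, read 1.28, 1.06 and 1.01 in DN, 0.21, -0.19 and -0.02 in DP, -0.79, -0.88 and -0.59 in CD4SP and -0.14, -0.15 and -0.35 in CD8SP. DN was high and CD4SP low, while CD8SP overlapped with DP. The probe sets differed in CD8SP: 1427595_at (-0.59, -0.35 and -0.65) lay below all DP arrays, and 1434185_at (0.30, 0.05 and -0.05) overlapped with them. Acaca fell by 1.12 ± 0.12 from DN to DP (adjusted p = 4.36e-05) and by 0.75 ± 0.12 in CD4SP (adjusted p = 7.34e-04). The CD8SP minus DP difference was -0.21 ± 0.12 (adjusted p = 0.206).

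Acly, which makes cytosolic acetyl-CoA from citrate for both pathways, read 0.04, 0.03 and 0.06 in DN, -0.07, 0.07 and 0.00 in DP, -0.32, -0.24 and -0.18 in CD4SP and -0.54, -0.48 and -0.54 in CD8SP. DN and DP overlapped, and the SP subsets lay below them with CD8SP lowest. The fall to CD8SP was 0.52 ± 0.07 (adjusted p = 1.60e-04). The fall to CD4SP was 0.24 ± 0.07 (adjusted p = 0.0207), and was lost without any 1 of DP replicates 2 and 3 and CD4SP replicates 1 and 2 (adjusted p up to 0.0846). Of the 6 Acly probe sets, 1446315_at ran against the other 5 in the comparisons of SP with DN: it read -0.42, -0.54 and -0.49 in DN and was higher in CD4SP than in DN by 0.55 ± 0.13 (adjusted p = 0.0049), where the Acly average was lower by 0.29 (adjusted p = 0.00679).

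Among the desaturases, Fads2, the delta-6 desaturase that opens the route to long polyunsaturated fatty acids, changed by the most of any member. It read 1.65, 1.82 and 1.95 in DN, 0.20, -0.18 and -0.02 in DP, -2.60, -2.94 and -2.91 in CD4SP and -2.46, -2.67 and -2.57 in CD8SP. DN, DP and SP were separated by wide gaps, and the SP subsets overlapped. Fads2 fell by 1.80 ± 0.13 from DN to DP (adjusted p = 2.07e-06), by 2.82 ± 0.13 in CD4SP (7.04-fold, adjusted p = 7.51e-08) and by 2.57 ± 0.13 in CD8SP (5.92-fold, adjusted p = 1.35e-07). From DN to CD4SP this made 24.6-fold. Its 3 probe sets shared the direction with different sizes: from DP to CD4SP, 1419031_at fell by 1.18 ± 0.16, 1449325_at by 2.82 ± 0.09 and 1443838_x_at by 4.45 ± 0.29.

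Fads1, the delta-5 desaturase that acts after Fads2, read 0.43, 0.27 and 0.27 in DN, 0.11, -0.04 and -0.08 in DP, -0.69, -0.90 and -0.96 in CD4SP and -0.65, -0.80 and -0.83 in CD8SP. The order of the subsets was that of Fads2, with smaller steps. Fads1 fell by 0.85 ± 0.10 in CD4SP (adjusted p = 5.59e-05) and by 0.76 ± 0.10 in CD8SP (adjusted p = 1.08e-04). Its fall of 0.32 ± 0.10 from DN to DP (adjusted p = 0.0235) had an adjusted p of 0.0795 without DN replicate 1, 0.072 without DP replicate 2 and 0.0857 without DP replicate 3.

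The stearoyl-CoA desaturases, which make monounsaturated fatty acids, differed from each other. Scd2, singled out here after its values were seen, read -0.24, 0.18 and 0.23 in DN, -0.34, 0.17 and 0.17 in DP, -0.88, -0.34 and -0.26 in CD4SP and -2.30, -1.53 and -1.58 in CD8SP. The CD8SP arrays lay below all other arrays, and the other subsets overlapped in part. Scd2 fell by 1.80 ± 0.25 in CD8SP relative to DP (adjusted p = 1.74e-04), with a CD4SP minus DP difference of -0.49 ± 0.25 (adjusted p = 0.16). The array numbered 1 was the lowest of its subset in all 4 subsets. With the replicate number as a block in limma, the CD4SP minus DP difference was called (adjusted p = 0.00159). The labels do not say that arrays of the same number belong together, and the numbers were not taken as pairs. Scd1 had differences between -0.27 and 0.29 over the 6 comparisons.

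The elongases among the members had their lowest means in DP. Elovl6, which lengthens the palmitate made by Fasn, read 1.70, 2.21 and 1.92 in DN, 0.01, 0.10 and -0.12 in DP, 0.71, 0.86 and 0.84 in CD4SP and 1.03, 1.52 and 1.51 in CD8SP. The 4 subsets did not overlap, in the order DN, CD8SP, CD4SP and DP. Elovl6 fell by 1.94 ± 0.16 from DN to DP (3.84-fold, adjusted p = 4.46e-06) and rose by 0.80 ± 0.16 in CD4SP (adjusted p = 0.00218) and by 1.35 ± 0.16 in CD8SP (adjusted p = 4.88e-05). Elovl1, which makes very long saturated chains, fell by 0.56 ± 0.08 from DN to DP (adjusted p = 2.83e-04) and rose by 0.42 ± 0.08 in CD4SP (adjusted p = 0.00222) and by 0.94 ± 0.08 in CD8SP (adjusted p = 6.00e-06). Elovl5, the elongase of polyunsaturated chains, fell by 0.75 ± 0.13 from DN to DP (adjusted p = 9.41e-04) and rose by 0.56 ± 0.13 in CD8SP (adjusted p = 0.00556), with a CD4SP minus DP difference of 0.33 ± 0.13 (adjusted p = 0.0721). Its lower value in CD4SP than in DN (-0.41, adjusted p = 0.0238) was lost without DN replicate 1, DN replicate 3, CD4SP replicate 2 or CD4SP replicate 3 (adjusted p up to 0.0948).

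**Figure D4:**
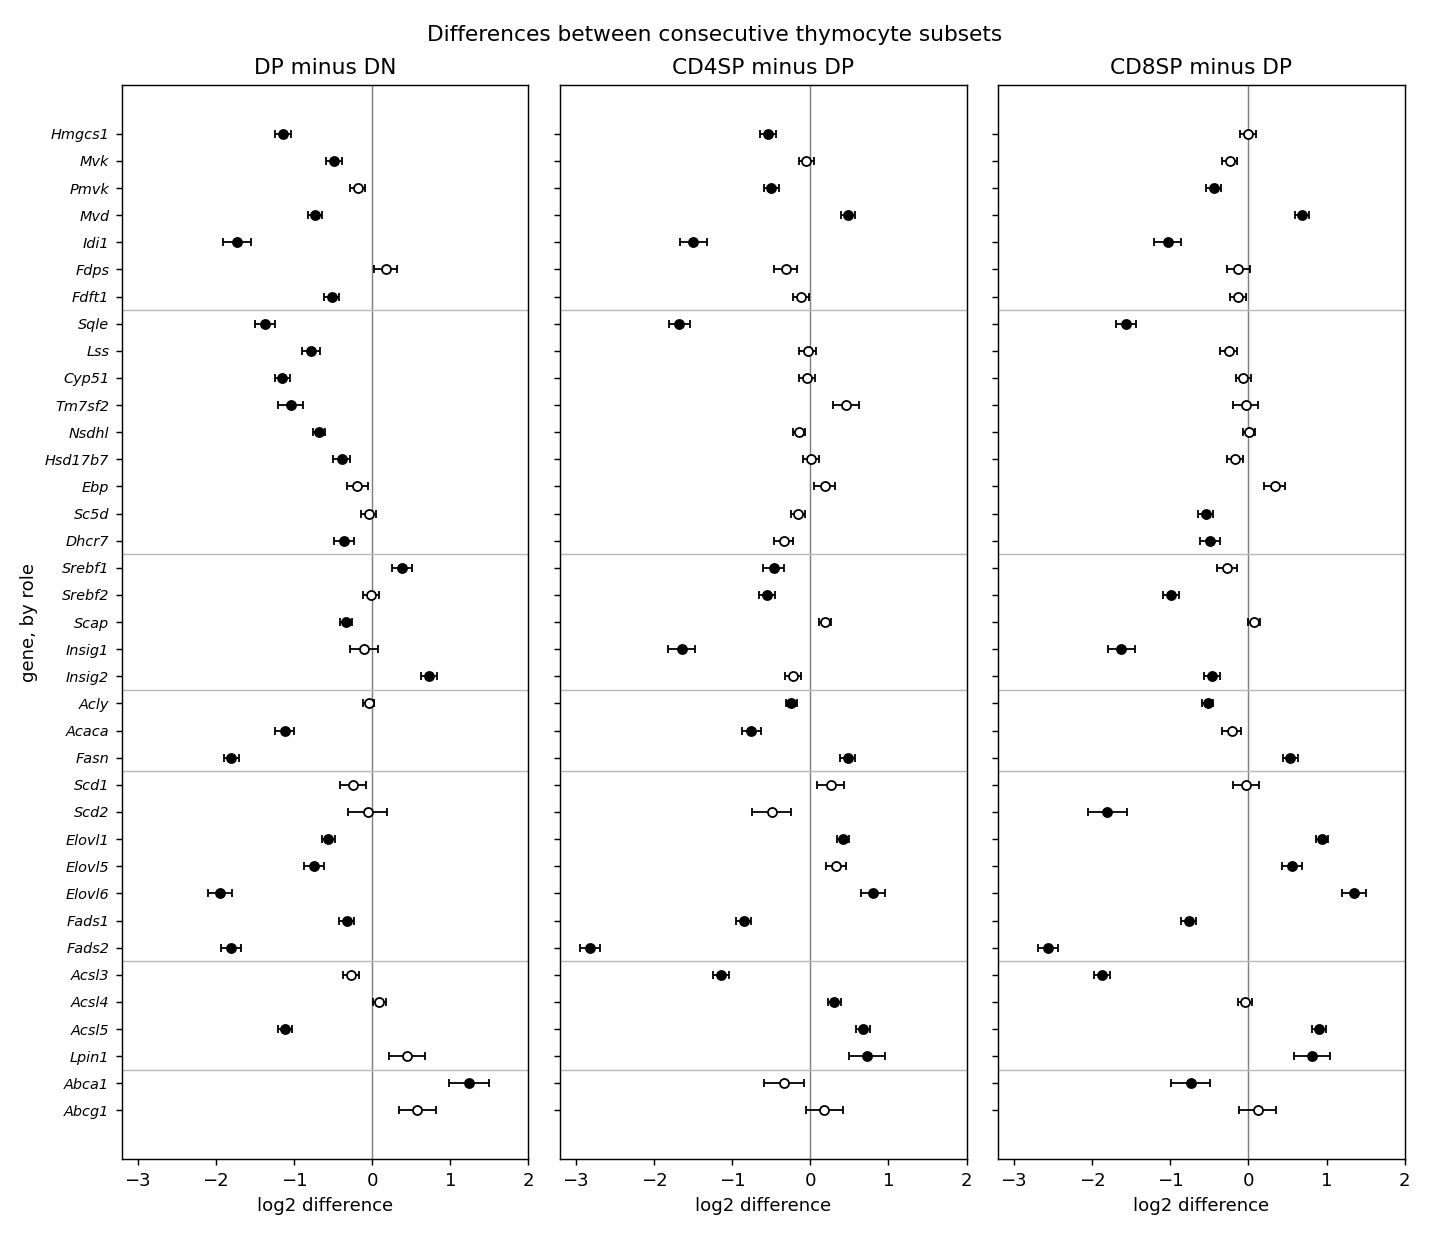
Log2 differences with SE of the 37 members (rows, by role) in DP against DN, CD4SP against DP and CD8SP against DP, with filled points where the adjusted p is under 0.05. In DP against DN 21 filled points lie left of 0, while beyond DP the fatty acid genes spread to both sides, from Fads2 at -2.82 in CD4SP to Elovl6 at 1.35 in CD8SP.

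The acyl-CoA synthetases, which activate fatty acids for use, split by isoform. Acsl3, the isoform tied to lipid droplets, read 0.32, 0.32 and 0.16 in DN, 0.07, 0.00 and -0.07 in DP, -1.24, -1.27 and -0.92 in CD4SP and -1.81, -1.97 and -1.82 in CD8SP. The SP subsets lay far below DP, and CD8SP below CD4SP. Acsl3 fell by 1.14 ± 0.10 in CD4SP (adjusted p = 1.01e-05) and by 1.87 ± 0.10 in CD8SP (3.65-fold, adjusted p = 2.71e-07), with a DP minus DN difference of -0.27 ± 0.10 (adjusted p = 0.0682).

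Acsl5, the isoform of mitochondria and endoplasmic reticulum, read 1.16, 1.21 and 0.98 in DN, 0.07, -0.03 and -0.04 in DP, 0.75, 0.61 and 0.66 in CD4SP and 0.82, 0.99 and 0.91 in CD8SP. DP was lowest, as for Fasn and Elovl6. Acsl5 fell by 1.12 ± 0.09 from DN to DP (adjusted p = 3.56e-06) and rose by 0.67 ± 0.09 in CD4SP (adjusted p = 1.30e-04) and by 0.90 ± 0.09 in CD8SP (adjusted p = 1.31e-05). Acsl4, which prefers arachidonate, rose by 0.31 ± 0.09 in CD4SP relative to DP (adjusted p = 0.0175), a call lost without any 1 of DP replicates 2 and 3 and CD4SP replicates 1 and 3 (adjusted p up to 0.0697).

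Lpin1, the phosphatidate phosphatase of glycerolipid synthesis, read -1.08, -0.15 and -0.10 in DN, -0.29, 0.16 and 0.13 in DP, 0.77, 0.67 and 0.73 in CD4SP and 0.65, 0.91 and 0.89 in CD8SP. All SP arrays lay above all DN and DP arrays, and DN replicate 1 lay below the other DN arrays. Lpin1 rose by 0.72 ± 0.23 in CD4SP (adjusted p = 0.0332) and by 0.82 ± 0.23 in CD8SP (adjusted p = 0.0158). The former was lost without any 1 of DP replicates 1 and 3 and the 3 CD4SP arrays (adjusted p up to 0.118, without DP replicate 1), and the latter without DP replicate 1 (adjusted p = 0.0635). The DP minus DN difference was 0.44 ± 0.23 (adjusted p = 0.163), and 0.13 without DN replicate 1.

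The mean values of the efflux pumps were lowest in DN, and not every difference from DN passed the test. Abca1, which loads cholesterol onto apolipoproteins, read -1.92, -0.88 and -0.91 in DN, -0.26, 0.13 and 0.13 in DP, -0.60, -0.22 and -0.19 in CD4SP and -0.88, -0.67 and -0.66 in CD8SP. DN and DP did not overlap, DN and CD8SP did, and the array numbered 1 was the lowest of its subset in all 4 subsets. Abca1 rose by 1.24 ± 0.25 from DN to DP (2.36-fold, adjusted p = 0.00267), and by 0.90 without DN replicate 1. The CD8SP minus DN difference was 0.50 ± 0.25 (adjusted p = 0.136). Abca1 fell by 0.74 ± 0.25 in CD8SP relative to DP (adjusted p = 0.0386), a call lost without any 1 of DP replicates 2 and 3, CD4SP replicate 2 and the 3 CD8SP arrays (adjusted p up to 0.109).

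Abcg1, which exports sterol to lipoprotein particles, read -1.11, -0.44 and -0.19 in DN, -0.43, 0.23 and 0.20 in DP, 0.01, 0.29 and 0.23 in CD4SP and -0.07, 0.24 and 0.20 in CD8SP. Here too the array numbered 1 was the lowest in each subset, as it was for 6 members and for 8.38% of all genes. Abcg1 was higher in CD4SP than in DN by 0.76 ± 0.24 (adjusted p = 0.0232) and in CD8SP by 0.70 ± 0.24 (adjusted p = 0.0349), with a DP minus DN difference of 0.58 ± 0.24 (adjusted p = 0.0794). The former call was lost without DN replicate 1, CD4SP replicate 2 or CD4SP replicate 3 (adjusted p up to 0.0768) and the latter without DN replicate 1, DN replicate 2, CD8SP replicate 2 or CD8SP replicate 3 (adjusted p up to 0.117). The DP minus DN difference passed without DN replicate 3 (adjusted p = 0.031) or DP replicate 1 (adjusted p = 0.0251).

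CD4SP and CD8SP cells differed in 10 members. In CD4SP against CD8SP, where 12.7% of all genes were called (7.78% higher, 4.91% lower), 6 members were higher, 4 were lower and 27 were not called, and the arrays did not overlap for 16 members and 30.3% of all genes. Higher in CD4SP were Scd2 by 1.31 ± 0.25 (2.48-fold, adjusted p = 0.00623), Acsl3 by 0.73 ± 0.10 (adjusted p = 0.00144), Srebf2 by 0.44 ± 0.10 (adjusted p = 0.016), Sc5d by 0.39 ± 0.09 (adjusted p = 0.0189), Acsl4 by 0.35 ± 0.09 (adjusted p = 0.0212) and Acly by 0.27 ± 0.07 (adjusted p = 0.0271). Lower in CD4SP were Elovl6 (-0.55 ± 0.16, adjusted p = 0.0419), Acaca (-0.54 ± 0.12, adjusted p = 0.0166), Hmgcs1 (-0.54 ± 0.10, adjusted p = 0.00663) and Elovl1 (-0.52 ± 0.08, adjusted p = 0.00216). For Acaca, the CD4SP and CD8SP arrays overlapped in probe set 1427595_at and were apart in 1434185_at. For Srebf2, they overlapped in 1452174_at and were apart in 1426744_at. With each gene taken from its least variable probe set, the calls of Srebf2, Sc5d and Acsl4 were lost. The lead genes of the staircase were not called: Sqle differed by -0.11 ± 0.13 (adjusted p = 0.669), Fads2 by -0.25 ± 0.13 (adjusted p = 0.255) and Idi1 by -0.46 ± 0.18 (adjusted p = 0.117). The calls of Scd2, Acsl3, Elovl1 and Hmgcs1 held whichever 1 array was left out. That of Sc5d was lost without CD4SP replicate 1 (adjusted p = 0.0717), that of Acsl4 without CD4SP replicate 1 or 3 (up to 0.0736), that of Acaca without CD4SP replicate 1 or 2 or CD8SP replicate 2 (up to 0.0671), that of Srebf2 without CD4SP replicate 1 or 3 or CD8SP replicate 3 (up to 0.0598), that of Acly without CD4SP replicate 2 or 3 or CD8SP replicate 2 or 3 (up to 0.108), and that of Elovl6 in 9 of 12 such fits (up to 0.132). Without CD4SP replicate 1 or 3 the count of higher members was 3 and without CD4SP replicate 2 or CD8SP replicate 2 that of lower members was 2. After quantile normalization of the arrays the limma counts were 0 higher and 0 lower, with 2 higher and 3 lower at an unadjusted p under 0.05. Of all 18193 genes, 118 were then higher and 111 lower, instead of 1415 and 893.

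**Figure D5:**
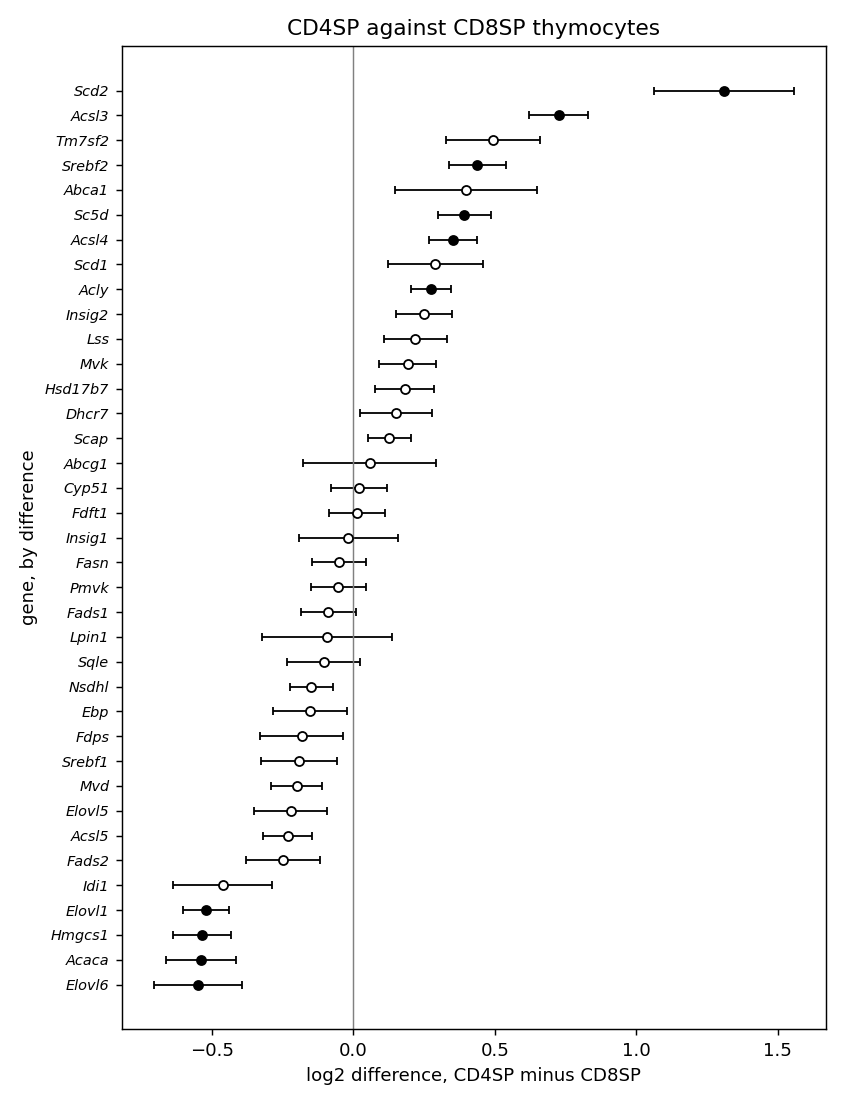
CD4SP minus CD8SP log2 differences with SE for the 37 members, with filled points where the adjusted p is under 0.05. The 10 filled points run from Elovl6 at -0.55 to Scd2 at 1.31.

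The mean of the cell cycle genes fell mainly after DP, while single genes took separate courses. Mcm3 and Top2a are named here after their values were seen. Mcm3 read 1.02, 1.10 and 1.08 in DN and 0.09, -0.04 and -0.05 in DP. Top2a read -0.56, -1.13 and -1.38 in DN and 0.31, -0.15 and -0.16 in DP. The mean of 19 cell cycle genes lay between 0.22 and 0.53 on the DN arrays, between -0.10 and 0.17 in DP, between -1.54 and -1.16 in CD4SP and between -0.83 and -0.58 in CD8SP. Of the 19, 9 were lower in DP than in DN and 1 higher, and 17 were lower in CD4SP than in DP. In CD8SP 12 were lower than in DP and 1 higher, and 12 were lower in CD4SP than in CD8SP. These make 52.6%, 89.5%, 68.4% and 63.2% of the 19, against 36.6%, 32.7%, 39.0% and 12.7% of all genes called. NK and innate lymphoid markers, some of which cytotoxic T cells also express, had array means between 0.52 and 0.87 in CD4SP and between 2.58 and 2.96 in CD8SP. Their part in the lipid gene results was not tested.

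Other genes of these pathways, listed apart from the members, were counted in the same fits. Of 5 measured genes of sterol and isoprenoid synthesis outside the group, 1 rose and 3 fell from DN to DP, where 36.6% of all genes were called. Lbr, a nuclear envelope protein that is also a sterol reductase, ran against the members there: it rose by 0.74 ± 0.09 (adjusted p = 8.59e-05), then fell by 1.36 ± 0.09 in CD4SP (adjusted p = 9.84e-07) and by 1.15 ± 0.09 in CD8SP (adjusted p = 3.04e-06). Dhdds, which extends isoprenoids to dolichol, fell by 0.58 ± 0.08 from DN to DP (adjusted p = 1.72e-04).

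Of 11 genes of sterol uptake, transport and sensing, 4 rose and 3 fell from DN to DP, 1 rose and 5 fell from DP to CD4SP, and 2 rose and 6 fell from DP to CD8SP. These make 63.6%, 54.5% and 72.7% of the 11, against 36.6%, 32.7% and 39.0% of all genes called. Lipa, the lysosomal lipase that frees cholesterol from its esters, read -2.16, -2.23 and -2.15 in DN, -0.30, 0.19 and 0.11 in DP, -1.26, -1.32 and -1.13 in CD4SP and -1.24, -1.14 and -1.08 in CD8SP. DP was highest and DN lowest, with no overlap. Lipa rose by 2.18 ± 0.12 from DN to DP (adjusted p = 3.61e-07) and fell by 1.24 ± 0.12 in CD4SP (adjusted p = 1.64e-05) and by 1.15 ± 0.12 in CD8SP (adjusted p = 2.36e-05). Stard4, a sterol carrier protein, fell by 0.77 ± 0.09 from DN to DP (adjusted p = 4.37e-05), and Npc2, the lysosomal cholesterol carrier, rose by 0.90 ± 0.10 in CD4SP (adjusted p = 3.70e-05).

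Of 14 other genes of fatty acid synthesis and elongation, 5 fell from DN to DP and 9 were not called. The 35.7% called is close to the 36.6% of all genes. Mid1ip1, an activator of acetyl-CoA carboxylase, fell by 1.23 ± 0.15 (adjusted p = 9.21e-05) and the citrate carrier Slc25a1 by 0.90 ± 0.11 (adjusted p = 9.56e-05). From DP to CD4SP 6 rose and 1 fell, and from DP to CD8SP 5 rose and 1 fell. These make 50.0% and 42.9% of the 14, against 32.7% and 39.0% of all genes called. The elongase Elovl7 rose by 1.64 ± 0.15 in CD4SP (adjusted p = 8.97e-06) and by 1.97 ± 0.15 in CD8SP (adjusted p = 2.08e-06). Hacd3, the dehydratase of the elongation cycle, rose by 1.28 ± 0.10 in CD4SP (adjusted p = 4.02e-06) and was higher in CD4SP than in CD8SP by 0.70 ± 0.10 (adjusted p = 0.0016), while Mid1ip1 was lower in CD4SP than in CD8SP by 1.03 on the log2 scale (adjusted p = 0.0016).

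Of 12 other genes of fatty acid activation and glycerolipid synthesis, 3 rose and 1 fell from DN to DP, 4 fell in CD4SP and 5 in CD8SP, or 33.3%, 33.3% and 41.7% called, close to the 36.6%, 32.7% and 39.0% of all genes. Pcyt1a, the control enzyme of phosphatidylcholine synthesis, fell by 0.77 ± 0.10 in CD4SP (adjusted p = 1.25e-04) and by 1.52 ± 0.10 in CD8SP (adjusted p = 7.63e-07), and was higher in CD4SP than in CD8SP by 0.75 ± 0.10 (adjusted p = 8.37e-04). Acss2, which makes acetyl-CoA from acetate, rose by 0.93 ± 0.14 from DN to DP (adjusted p = 3.57e-04).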

How the data were processed

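Total RNA of 12 sorted thymocyte samples was measured on Affymetrix arrays. The authors deposited 1 log2-like value per probe set and array (of a log base not stated in the labels or the table), and each probe set had been centred on the mean of its DP arrays, as the values show (largest absolute DP mean 1.27e-06). MAS5 is named, without version or role, per the submitters' processing notes. Depth does not apply to arrays, and their number limits the precision. Of 45101 probe sets, 34958 had 1 symbol, 932 several and 9211 none; 34945 non-control probe sets were averaged to 18193 genes. No further normalization was applied (array medians between -0.096 and 0.049). Group means were fitted with limma 3.58.1 in R 4.3.3, and p-values were adjusted by Benjamini-Hochberg over all genes of a comparison. The same code was tested on simulated arrays holding 200 genes of known change.

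Groups came from the sample titles. The members and all lists were chosen with earlier results of these data known. Values on every array are given for up to 3 members of each role with the highest moderated F, and for members whose probe sets were called in opposite directions; other pathway genes are named as the 2 called members with the lowest adjusted p in a comparison, and Scd2 was added after its values were seen. Alternatives were leaving out each array, quantile normalization, array weights, other choices of probe set, 2-group fits and the replicate number as a block. Levels and detection could not be assessed.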

Additional observations from a re-analysis of the deposited data

Results flagged for a closer look

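The changes from DP to CD4SP and from DP to CD8SP differed for 10 members, by the test of CD4SP against CD8SP (limma, adjusted over 18193 genes), in which 12.7% of all genes were called. The difference (CD4SP minus CD8SP, log2) was 1.31 for Scd2, 0.73 for Acsl3, 0.44 for Srebf2, 0.39 for Sc5d, 0.35 for Acsl4 and 0.27 for Acly. It was -0.55 for Elovl6, -0.54 for Acaca, -0.54 for Hmgcs1 and -0.52 for Elovl1.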

How the results depend on the processing

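Of 130 called member differences, 72 kept their direction and call in every alternative that gave a value (up to 21 for each). Quantile normalization ended 53 calls. The DP arrays, centred on their own mean, have an SD over genes of 0.188 to 0.208 against 0.667 to 0.830 on the others, and this setting forces a common spread on them. Under it 3 members rose and 7 fell in CD4SP against DP, 4 rose and 8 fell in CD8SP against DP, and 1 rose in CD4SP against DN. It left 0 higher in CD8SP against DN (3 at an unadjusted p under 0.05 in limma), and 0 higher and 0 lower in CD4SP against CD8SP (2 and 3 at an unadjusted p under 0.05, with 6 and 4 by limma without it). With each gene taken from its least variable probe set, 3 members were higher in CD4SP than in CD8SP and 5 in CD8SP than in DN. This choice turned Fdps to -1.33 in DP against DN and -2.29 in CD8SP against DN, and Fdft1 to 0.25 in CD8SP against DP, 0.071 in CD4SP against DN and 0.11 in CD8SP against DN. With only the 6 arrays compared, 2 members were higher in CD4SP than in CD8SP. With the replicate number as a block 5 members were higher in CD8SP than in DN instead of 3. It ended the DP against DN call of Dhcr7 and added 8 calls, among them Scd2 in CD4SP against DP (-0.49, adjusted p = 0.00159) and in CD4SP against DN (-0.55, adjusted p = 6.44e-04). It changed no other count by over 1.5 times. Deviations from the subset mean correlated over genes at r of 0.106 to 0.156 between arrays numbered 1 in different subsets. For number 2 this r was -0.025 to 0.0884, for number 3 it was 0.0214 to 0.139, and between different numbers it was -0.162 to 0.0797. The arrays numbered 1 thus shared a weak deviation. Those numbered 2 did not all deviate together, and the numbers were not taken as pairs. Leaving out 1 array gave 3 to 6 higher and 2 to 4 lower members in CD4SP against CD8SP and 2 to 5 higher in CD8SP against DN (5 without CD8SP replicate 1). The other counts ranged over 2 to 4 higher and 19 to 21 lower in DP against DN, 5 to 8 and 10 to 12 in CD4SP against DP, 6 to 8 and 13 to 15 in CD8SP against DP, 4 to 5 and 21 to 24 in CD4SP against DN, and 23 to 25 lower in CD8SP against DN. Signal over background could not be read from values centred on DP, so dim probe sets could not be left out.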

Other observations

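Of 11 measured genes of fatty acid oxidation, 2 rose and 3 fell from DN to DP, 1 rose and 3 fell from DP to CD4SP, and 2 rose and 1 fell from DP to CD8SP. These make 45.5%, 36.4% and 27.3% of the 11, against 36.6%, 32.7% and 39.0% of all genes called. Pparg, the nuclear receptor of lipid storage and oxidation genes, read 2.23, 1.47 and 1.77 in DN, 0.07, 0.09 and -0.16 in DP, 2.37, 2.28 and 2.62 in CD4SP and 2.53, 2.39 and 2.91 in CD8SP. DP was the low subset, with no overlap. Pparg fell by 1.83 ± 0.19 (SE) from DN to DP (limma, adjusted p = 3.23e-05) and was higher by 2.42 ± 0.19 in CD4SP (adjusted p = 3.94e-06) and by 2.61 ± 0.19 in CD8SP (adjusted p = 2.08e-06). Acadm, the medium-chain acyl-CoA dehydrogenase, ran the other way, with a rise of 0.56 ± 0.09 from DN to DP (adjusted p = 5.04e-04) and a fall of 0.63 ± 0.09 to CD4SP (adjusted p = 2.38e-04).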
